A study of Mus musculus with 59 samples.

Results

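The genes described here are 26 genes of cholesterol synthesis and of the sterol regulatory element binding protein 2 (SREBP2) system in mouse brown adipose tissue (BAT). They were chosen by name from the 55341 genes counted, and all 26 were found in each of the 3 count tables. The list holds 8 genes of the mevalonate part of the pathway (Acat2, Hmgcs1, Mvk, Pmvk, Mvd, Idi1, Fdps and Ggps1), 3 genes that lead to lanosterol (Fdft1, Sqle and Lss), 9 genes that convert lanosterol to cholesterol (Cyp51, Tm7sf2, Lbr, Msmo1, Nsdhl, Hsd17b7, Ebp, Sc5d and Dhcr7), 4 regulators (Srebf2, Scap, Insig1 and Insig2) and 2 genes of sterol transport and storage (Stard4 and Soat1).

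RNA-seq counts came from 59 male C57BL/6J mice aged 8 to 12 weeks, each sequenced as a separate library of total RNA from BAT. In the thyroid hormone (TH) experiment, wild-type (WT) mice were made hypothyroid with propylthiouracil (PTU) and analysed without TH or 3, 6, 12 or 24 h after a TH injection (4 mice each), and BATKO mice were analysed on PTU alone or 24 h after TH (5 mice each). All 30 of these mice received PTU. In the temperature experiment, control (CTRL) mice were kept at 4 °C (3 mice) or 30 °C (4 mice) and BATKO mice at 4 °C (4 mice) or 30 °C (5 mice). The label of the table gives 24 h beside 4 °C and does not name 30 °C. In the diet experiment, CTRL mice were fed chow or a diet high in fat (HFD; 4 mice each), and BATKO mice HFD (3 mice) or chow (2 mice), for 3.5 days by the label of the table. The genetic change of BATKO mice, the promoter that drives it, and the genotype of CTRL mice are not described in the sources used here, so BATKO is used only as a name.

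Cells make cholesterol from acetyl-CoA through mevalonate, farnesyl pyrophosphate, squalene and lanosterol. When sterols are low in the endoplasmic reticulum, SCAP escorts SREBP2, the product of Srebf2, to the Golgi, where it is cleaved and released to activate the genes of the pathway, and INSIG proteins hold SCAP back when sterols are high. In brown fat, cold and TH are both known to activate thermogenesis and lipid turnover.

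Promoter sequences are shown for 5 members that carry the results below: Hmgcs1 and Insig1, which fell after TH, and Cyp51, Hsd17b7 and Nsdhl, which rose in the cold. Each run holds the 250 bases before the annotated start of transcription, from RefSeq (GRCm38.p6), 5′ to 3′ on the strand of the gene, and capitals mark the letters CCAAT on either strand and the sterol regulatory element letters TCACNCCAC.
Hmgcs1 (chr13:119690101-119690350, plus strand): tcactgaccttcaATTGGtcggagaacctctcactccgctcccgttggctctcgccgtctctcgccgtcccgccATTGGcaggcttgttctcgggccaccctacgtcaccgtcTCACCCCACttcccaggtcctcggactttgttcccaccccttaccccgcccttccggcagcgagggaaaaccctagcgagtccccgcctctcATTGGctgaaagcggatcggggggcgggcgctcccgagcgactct
Insig1 (chr5:28071162-28071411, plus strand): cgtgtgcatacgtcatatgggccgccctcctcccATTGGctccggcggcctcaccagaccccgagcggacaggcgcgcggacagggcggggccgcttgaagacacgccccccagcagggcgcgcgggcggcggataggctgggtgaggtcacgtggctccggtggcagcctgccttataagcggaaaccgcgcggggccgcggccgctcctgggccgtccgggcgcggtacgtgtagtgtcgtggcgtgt
Cyp51 (chr5:4104698-4104947, minus strand): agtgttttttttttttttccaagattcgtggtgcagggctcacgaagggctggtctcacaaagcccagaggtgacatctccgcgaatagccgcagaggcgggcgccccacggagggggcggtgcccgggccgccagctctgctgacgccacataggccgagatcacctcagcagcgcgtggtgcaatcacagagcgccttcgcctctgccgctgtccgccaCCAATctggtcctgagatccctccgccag
Hsd17b7 (chr1:169969206-169969455, minus strand): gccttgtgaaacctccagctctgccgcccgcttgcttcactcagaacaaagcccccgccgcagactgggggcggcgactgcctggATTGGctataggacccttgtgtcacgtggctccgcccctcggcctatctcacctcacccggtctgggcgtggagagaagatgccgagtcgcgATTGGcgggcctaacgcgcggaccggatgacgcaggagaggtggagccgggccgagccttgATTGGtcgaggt
Nsdhl (chrX:72918271-72918520, plus strand): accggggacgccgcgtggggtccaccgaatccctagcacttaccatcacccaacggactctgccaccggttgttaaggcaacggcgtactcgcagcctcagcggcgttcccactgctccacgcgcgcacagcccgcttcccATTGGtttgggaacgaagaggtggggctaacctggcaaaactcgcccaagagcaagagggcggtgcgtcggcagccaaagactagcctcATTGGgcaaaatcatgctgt

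Promoters were available for 22 of the 26 members, not for Fdps, Fdft1, Sqle and Stard4. Letters were searched on both strands of the windows of 250 bases before to 50 bases after each start. CCAAT, the binding letters of NF-Y, a factor known to act beside SREBP2, were present in 20 of the 22 members (90.9%), against 41.1% of all 27025 genes with a promoter. Acat2 and Scap were the members without them. Mvk held 5 copies in its window, and Hmgcs1 and Nsdhl each held 4. TCACNCCAC was present in 1 member, Hmgcs1, beginning 137 bases before the start, and in 1.44% of all genes. AGGTCA, the half-site of thyroid hormone receptors, was present in 3 members (13.6%), Hmgcs1, Dhcr7 and Insig1, and in 18.1% of all genes. Genes with several annotated starts had more sequence searched, and a match of letters is not a binding site.

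Levels are given in CPM, the count of a gene scaled to a common library size, after TMM normalization, which scales libraries for their composition. Depth was 7805938 to 18073627 counts per mouse, and 39.2% to 55.7% of them fell on mitochondrial genes. Brown adipocyte markers were counted in every mouse. Below, markers are counted as higher or lower where every mouse of 1 group lies beyond every mouse of the other. The share of all genes that separate in this way was not computed. Skeletal muscle markers (8 genes) were the list that varied most, from 0.719 to 8190 summed CPM between mice of the temperature experiment and from 0.847 to 2140 in the diet experiment. In the TH experiment, the BATKO libraries stood apart from the WT libraries: 133 genes had 0 counts in all 20 WT mice and at least 10 in each of the 10 BATKO mice, and 0 genes showed the opposite. The same BATKO libraries held at least 10 counts in every mouse for 155 genes at 0 in all 16 mice of the temperature experiment, whereas no gene separated the WT mice of the TH experiment from the temperature experiment in this way. Genotype and this difference between libraries cannot be told apart, so levels in WT and BATKO mice of the TH experiment were not compared, and responses were computed within each genotype. Nothing in the labels says whether mice of a group shared a litter or a cage.

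Per length of exon, Acat2, which condenses acetyl-CoA, was the most abundant member in CTRL mice at 30 °C, with 53.7 CPM per kb. Sc5d and Insig1 followed with 14.9 CPM per kb each and Nsdhl with 12.6. Idi1 and Fdps, with 0.167 and 0.136 CPM per kb, were the least abundant. Near-identical copies limit some of these values: 76.8% of the longest Fdps transcript matches processed pseudogenes, 65.6% of that of Acat2 matches Acat3, and 33.7% of that of Fdft1 matches a pseudogene. Counts of these 3 genes are therefore uncertain.

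In CTRL mice, cold changed most of the pathway. Most enzymes rose, from the synthesis of HMG-CoA to the last steps of cholesterol formation. Fdft1, Lbr and Ggps1 fell, and Ebp did not pass the test. Of the 25 members tested (Idi1 was below the limit of a mean normalized count above 10), 18 rose and 3 fell at 4 °C against 30 °C by edgeR's quasi-likelihood test (adjusted p below 0.05). Among all genes tested, 26.5% rose and 22.6% fell. The median log2 fold change was 1.10 over the members and -0.01 over all genes. Summed over the 26 members, the level was 491 to 693 CPM at 30 °C and 1210 to 1410 CPM at 4 °C. In bulk tissue, fewer cells of a type and less RNA per cell cannot be told apart. The 8 brown adipocyte markers were Ucp1, Cidea, Dio2, Ppargc1a, Prdm16, Adipoq, Plin1 and Fabp4. Of these, 7 were higher and 1 was lower in every CTRL mouse at 4 °C than in every CTRL mouse at 30 °C. Their sum was 24200 to 27800 CPM against 5720 to 7180 CPM. More brown adipocytes and more RNA of these genes per cell cannot be told apart in this sum. The share of all genes without overlap was not computed. The part of these markers in the change of the members was not tested. All 8 muscle markers overlapped between these groups. Lower in every CTRL mouse at 4 °C were 2 of 6 macrophage and other immune markers (summed over the 6, 20.1 to 20.6 CPM at 4 °C and 25.4 to 39.1 CPM at 30 °C), 2 of 4 fibroblast markers (163 to 186 and 227 to 315 CPM) and 2 of 3 nerve and Schwann cell markers (8.69 to 26.5 and 30.1 to 50.2 CPM). Of 4 endothelial markers, 1 was higher and 1 lower. Their part was not tested either.

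**Figure D1:**
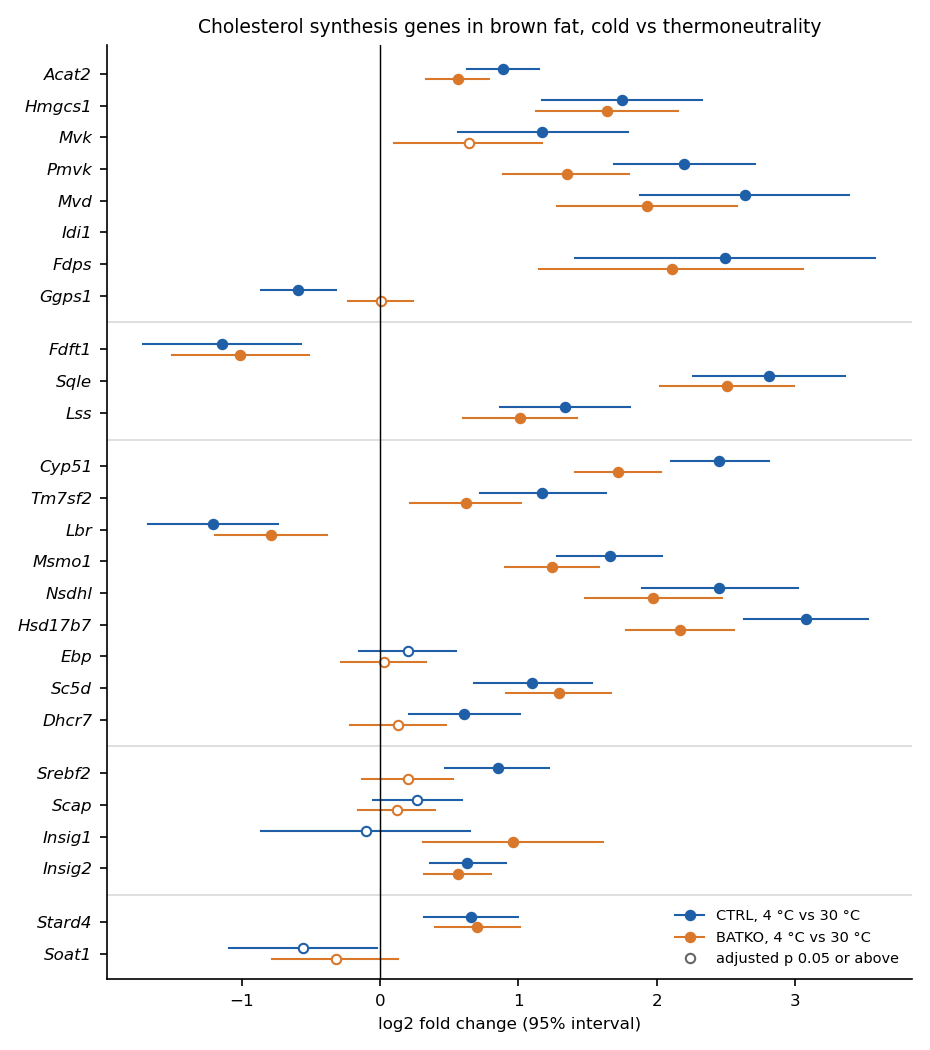
Log2 fold change of each member at 4 °C against 30 °C (x axis) in CTRL mice (blue) and BATKO mice (orange), with 95% intervals. Open points have an adjusted p of 0.05 or above, grey lines separate the roles, and Idi1 was too low to test. Most points lie to the right of 0 in both genotypes, whereas Fdft1 and Lbr lie to the left in both.

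Hsd17b7, the 3-ketosteroid reductase of C4 demethylation, had the largest change. It was at 6.15, 6.16, 6.48 and 7.97 CPM in the CTRL mice at 30 °C and at 52.2, 52.5 and 65 CPM at 4 °C. The groups did not overlap, and the level was 8.46-fold higher in the cold (log2 fold change 3.08 ± 0.21 SE, edgeR adjusted p = 3.61e-08). Cyp51, the lanosterol 14α-demethylase, was at 13.9, 14.3, 18.6 and 19.5 CPM at 30 °C and at 81.8, 92.8 and 97.8 CPM at 4 °C. It rose 5.48-fold (log2 2.45 ± 0.17, edgeR adjusted p = 3.56e-08). Nsdhl, which acts with Msmo1 and Hsd17b7 in the removal of the C4 methyl groups, went from 19.7, 36.9, 43.6 and 43.7 CPM to 185, 199 and 206 CPM. Its lowest mouse in the cold was far above the highest at 30 °C, and it rose 5.47-fold (log2 2.45 ± 0.27, edgeR adjusted p = 2.18e-06). Msmo1, the C4 methyl oxidase, was at 11.8, 16.4, 20.6 and 22.3 CPM at 30 °C and at 49.4, 56.4 and 62.3 CPM at 4 °C, a 3.15-fold rise (log2 1.66 ± 0.18, edgeR adjusted p = 2.04e-06).

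Sqle, the squalene epoxidase, a rate-limiting enzyme of the pathway, was at 3.83, 6.23, 8.08 and 8.16 CPM at 30 °C and at 43.2, 47.1 and 48.2 CPM at 4 °C. It rose 7.03-fold without overlap (log2 2.81 ± 0.26, edgeR adjusted p = 4.67e-07). Lss, the lanosterol synthase, rose 2.53-fold. Fdft1, the squalene synthase that stands just before Sqle, went the other way. It was at 32.5, 40.1, 43.7 and 46.2 CPM at 30 °C and at 14.3, 19.3 and 21.8 CPM at 4 °C, 2.20-fold lower (log2 -1.14 ± 0.27, edgeR adjusted p = 0.00231). Exons of Fdft1 share 18.3% of their bases with Ctsb on the other strand, and the sources used here do not give the strand setting of the counting. Ctsb was at 1010 CPM at 30 °C and 1230 CPM at 4 °C (log2 0.29 ± 0.16, edgeR adjusted p = 0.15). Other members share exon bases as well: Hmgcs1 12.1% with the antisense gene Gm48342 and Scap 13.2% with 5830462I19Rik on the other strand, and Fdps 26.7% with Gm43738 and Tm7sf2 12.1% with Vps51 on the same strand. How the counting divided such reads is not given, and these levels are uncertain to that extent.

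Of the 7 mevalonate genes tested, 6 rose and Ggps1 fell. Pmvk, the phosphomevalonate kinase, was at 4.39, 5.83, 6.56 and 8.56 CPM at 30 °C and at 20.7, 23.3 and 43.6 CPM at 4 °C, 4.6-fold higher (log2 2.20 ± 0.24, edgeR adjusted p = 2.18e-06). Mvd, which forms isopentenyl pyrophosphate, rose 6.22-fold from a mean of 0.984 CPM, and Fdps, the farnesyl pyrophosphate synthase, rose 5.64-fold from 0.574 CPM. Hmgcs1, the HMG-CoA synthase of the cytosol, rose 3.36-fold from 31.1 to 104 CPM. Mvk, the mevalonate kinase, and Acat2 rose 2.25-fold and 1.85-fold. Ggps1, which takes farnesyl pyrophosphate toward geranylgeranyl groups and away from sterols, was 1.51-fold lower in the cold (19.1 against 28.8 CPM, edgeR adjusted p = 0.00117). Idi1 was at 1.89 ± 0.84 CPM at 4 °C (SD, n = 3) and 0.585 ± 0.265 CPM at 30 °C (SD, n = 4), without a test.

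In the last part of the pathway, 7 of 9 genes rose, Lbr fell, and Ebp did not pass the test. Besides the 4 genes above, Tm7sf2 rose 2.25-fold, Sc5d, the lathosterol oxidase, 2.15-fold, and Dhcr7, the 7-dehydrocholesterol reductase, 1.53-fold. Dhcr7 depended on 1 mouse at 4 °C (mouse 1), and its log2 fold change without that mouse was 0.35 with an edgeR adjusted p of 0.142. Tm7sf2 and Lbr encode sterol C14 reductases, and moved apart: Lbr, which also anchors chromatin at the inner nuclear membrane, was 2.32-fold lower in the cold (7.79 against 18.1 CPM, edgeR adjusted p = 0.000293). Ebp, the sterol isomerase, was at 23.9 CPM at 4 °C and 20.8 CPM at 30 °C, with a 95% interval of the log2 fold change from -0.15 to 0.55.

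Among the regulators, Srebf2 was at 16.1, 20, 22.4 and 22.6 CPM at 30 °C and at 32.5, 35.4 and 41.5 CPM at 4 °C. It rose 1.80-fold (edgeR adjusted p = 0.000898), without overlap between the groups. Insig2 was at 17.4, 19.2, 20.4 and 20.5 CPM at 30 °C and at 29.1, 30 and 31 CPM in the cold, 1.55-fold higher (edgeR adjusted p = 0.000819). Insig1 was at 23, 45.6, 57.5 and 58.4 CPM at 30 °C and at 37.3, 38.5 and 52.8 CPM at 4 °C. Insig1 groups overlapped, and the 95% interval of its log2 fold change was -0.86 to 0.65. Scap was at 14.3, 16.6, 16.9 and 17.7 CPM at 30 °C and at 16.3, 20.4 and 22.7 CPM at 4 °C (log2 0.27 ± 0.15, edgeR adjusted p = 0.147). Stard4, a sterol carrier, rose 1.58-fold, and Soat1, which esterifies cholesterol for storage, was at 2.35 CPM in the cold and 3.45 CPM at 30 °C (edgeR adjusted p = 0.0794).

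**Figure D2:**
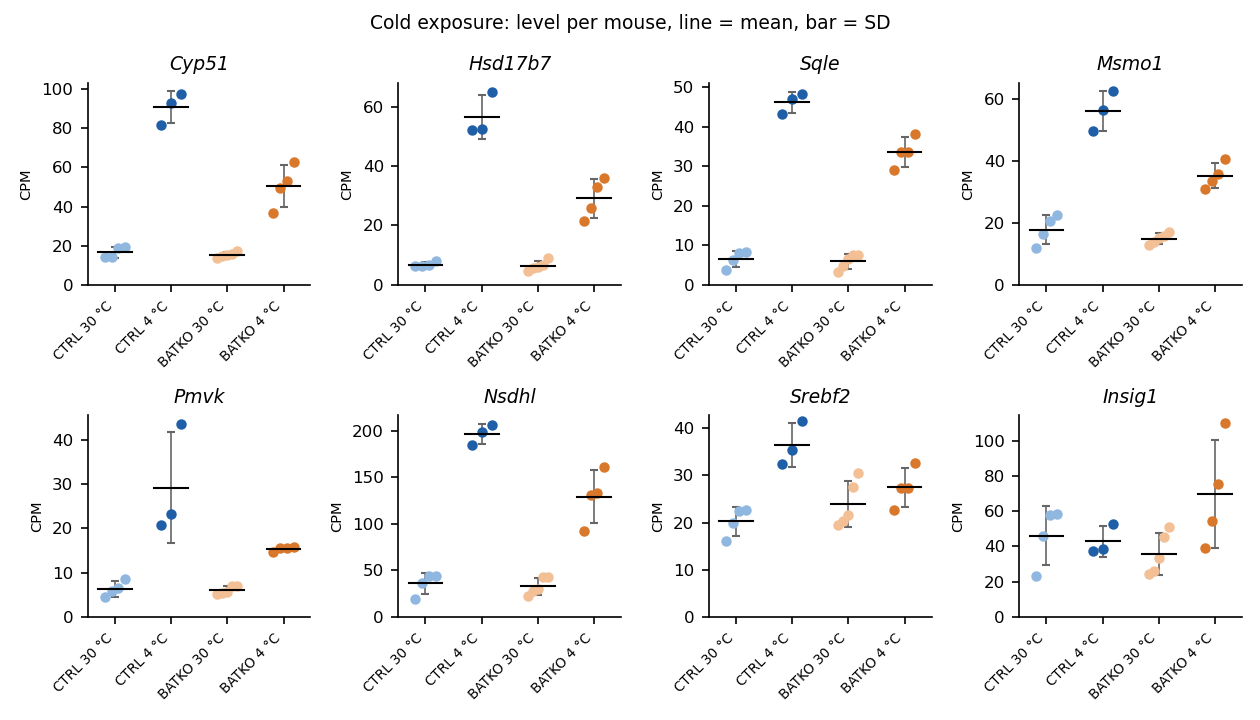
Level in CPM (y axes from 0) of 8 members in each mouse of the temperature experiment. Points are mice, black lines are group means and bars are SD. For Cyp51, Hsd17b7, Sqle, Msmo1, Pmvk and Nsdhl every mouse at 4 °C lies above every mouse at 30 °C in both genotypes, whereas the Insig1 groups overlap.

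BATKO mice changed the same pathway in the cold. Of the 25 members tested, 16 rose and 2 fell, against 21.4% and 18.9% of all genes tested, and the median log2 fold change was 0.70 over the members and -0.02 over all genes. Of the 18 members that rose in CTRL mice, 15 rose in BATKO mice as well, and Fdft1 and Lbr fell in both genotypes. Brown adipocyte markers were again higher, with 16800 to 25200 summed CPM at 4 °C and 5700 to 6930 CPM at 30 °C. Of these 8 markers, 7 were higher in every BATKO mouse at 4 °C than in every one at 30 °C. Of 4 endothelial markers, 1 was lower in this way. The part of these markers was not tested. Hsd17b7 was at 4.73, 5.48, 6.11, 6.77 and 9.1 CPM at 30 °C and at 21.6, 26, 32.8 and 36 CPM at 4 °C, 4.5-fold higher (edgeR adjusted p = 6.48e-07). Sqle was at 3.15, 4.74, 6.54, 7.48 and 7.53 CPM at 30 °C and at 29, 33.5, 33.7 and 38.1 CPM in the cold, 5.69-fold higher (edgeR adjusted p = 1.16e-06). Both enzymes had no overlap between the temperatures. Cyp51 was at 13.8, 14.8, 15.1, 15.5 and 17.3 CPM at 30 °C and at 36.9, 49.5, 53.2 and 62.7 CPM in the cold, a 3.30-fold rise. Nsdhl was at 22.3, 27.6, 29.6, 42.4 and 42.8 CPM and at 92.2, 131, 133 and 161 CPM, a 3.93-fold rise. Neither gene overlapped between the temperatures. Pmvk, at 5.19, 5.41, 5.62, 6.98 and 7.05 CPM at 30 °C and 14.6, 15.5, 15.6 and 15.9 CPM in the cold, rose 2.54-fold. Msmo1, at 12.8, 13.7, 14.9, 15.8 and 17.1 CPM and then 30.9, 33.5, 35.6 and 40.4 CPM, rose 2.36-fold. Without the 2 BATKO mice at 30 °C and the CTRL mouse at 30 °C with over 2000 summed CPM of muscle markers, a limit chosen after seeing the data, 14 members rose and 2 fell in BATKO mice, and 19 rose and 3 fell in CTRL mice.

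Of the regulators, Insig1 and Insig2 passed the test in BATKO mice and Srebf2 and Scap did not. Srebf2 was at 19.5, 20.4, 21.6, 27.6 and 30.5 CPM in BATKO mice at 30 °C and at 22.6, 27.3, 27.3 and 32.7 CPM in the cold, with overlapping groups (log2 0.20 ± 0.16, edgeR adjusted p = 0.328). Insig1 was at 24.1, 25.8, 33.2, 45.3 and 50.8 CPM and at 39.1, 54.1, 75.1 and 110 CPM, and rose 1.94-fold although the groups overlapped (edgeR adjusted p = 0.0207). This call was lost without the mice high in muscle markers (log2 0.78, edgeR adjusted p = 0.113), without BATKO mouse 8 at 4 °C and without BATKO mouse 14 at 30 °C. Insig2 was at 17.3, 18.6, 20.5, 21.2 and 21.7 CPM and at 23.8, 27.9, 31.6 and 34 CPM, 1.48-fold higher (edgeR adjusted p = 0.00109). Scap was at 16.2, 17.3, 17.7, 20 and 20.2 CPM and at 15.4, 20.8, 20.9 and 22.5 CPM, with overlapping groups (edgeR adjusted p = 0.489).

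Fewer members differed between the genotypes than between the temperatures. At 30 °C, 0 of 25 members differed between BATKO and CTRL mice by edgeR (1 at an unadjusted p below 0.05, and 0 by DESeq2), and 0.00754% of all genes did in either direction. At 4 °C, 0 members were higher and 3 were lower in BATKO mice, against 0.957% and 1.2% of all genes. These were Hsd17b7 (29.1 against 56.6 CPM, 1.95-fold lower, edgeR adjusted p = 0.022), Cyp51 (50.6 against 90.8 CPM, 1.80-fold lower, edgeR adjusted p = 0.0161) and Pmvk (15.4 against 29.2 CPM, 1.90-fold lower, edgeR adjusted p = 0.0492). For these 3 genes every BATKO mouse at 4 °C was below every CTRL mouse. Msmo1 (log2 -0.70, edgeR adjusted p = 0.0571) was called lower by DESeq2 (DESeq2 adjusted p = 0.00846) and by edgeR with RLE size factors (edgeR adjusted p = 0.044). The summed brown adipocyte markers overlapped, at 16800 to 25200 CPM in BATKO mice and 24200 to 27800 CPM in CTRL mice, and the summed fibroblast markers did not, at 192 to 313 CPM and 163 to 186 CPM. Their part was not tested. The count rested on single mice: it was 0 without CTRL mouse 1, 1 without CTRL mouse 2 and 1 without BATKO mouse 12, and 0 in a fit of only these groups. Of 7 fits with a mouse left out, the call held in 6 for Cyp51, 4 for Hsd17b7 and 1 for Pmvk. The cold response itself differed between genotypes for 0 members by edgeR, against 1.12% of all genes, with 6 members at an unadjusted p below 0.05, and for 3 members by DESeq2. The 3 members by DESeq2 were Ggps1 (log2 difference 0.60, DESeq2 adjusted p = 0.0381), Cyp51 (-0.73, DESeq2 adjusted p = 0.045) and Hsd17b7 (-0.91, DESeq2 adjusted p = 0.0458). For Srebf2 the difference of responses was -0.65, with a 95% interval of -1.15 to -0.14 and an edgeR adjusted p of 0.152, so that its call in CTRL mice and not in BATKO mice is no shown difference.

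After TH injection in WT hypothyroid mice, the members did not move as a block. By the calls, Hmgcs1 and Insig1 fell within 3 h, Acat2, Pmvk, Sqle and Nsdhl were lower at 6 h, and several members were higher at 12 h. Sc5d, called from 6 h, and Dhcr7 were high at 24 h. This is the order in which members passed the threshold. At 3 h, 0 members rose and 2 fell, against 5.1% and 4.09% of all genes tested. At 6 h, 1 rose and 6 fell, against 12.1% and 10.9%. At 12 h, 6 rose and 1 fell, against 13.6% and 12.1%. At 24 h, 4 of 26 (15.4%) rose and 2 fell, against 17.2% and 15.5%, so neither count was above the share of all genes. All 4 time points share the same 4 PTU mice. The median log2 fold change of the 26 members was -0.22, -0.23, 0.25 and 0.15 at 3, 6, 12 and 24 h, and that of all genes was between -0.02 and 0.01. At 3 h and 6 h, brown adipocyte markers summed to 15700 to 20500 and 18100 to 20900 CPM, against 14100 to 16000 CPM on PTU, at 12 h to 15500 to 22200 CPM and at 24 h to 12200 to 19900 CPM. Of these 8 markers, 2 stood above every PTU mouse in all mice at 3 h and 0 below. The numbers above and below were 3 and 1 for the 6 h group, 1 and 3 for the 12 h group, and 1 and 4 for the 24 h group. Endothelial markers summed to 294 to 315 CPM on PTU, to 325 to 341 CPM at 3 h and to 224 to 284 CPM at 12 h, when 2 of 6 immune markers were also lower in every mouse. At 24 h the endothelial sums overlapped those on PTU (284 to 323 CPM), with 2 of 4 markers above every PTU mouse. Of 4 fibroblast markers, 1 was above every PTU mouse at 3 h and 1 at 24 h. The part of these markers in the changes was not tested.

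Hmgcs1, which makes HMG-CoA, fell at all 4 time points. It was at 130, 156, 160 and 215 CPM on PTU, at 81.3, 91.7, 102 and 111 CPM at 3 h, and at 53.8, 69.7, 70.6 and 72.8 CPM at 6 h. It stayed at 71.1, 72.4, 79 and 87 CPM at 12 h and at 64.7, 74.3, 83.9 and 89.2 CPM at 24 h, below every PTU mouse. The level was 1.73-fold lower at 3 h (edgeR adjusted p = 0.00143), 2.50-fold lower at 6 h (edgeR adjusted p = 2.13e-06) and 2.12-fold lower at 24 h (edgeR adjusted p = 9.54e-06). Insig1, whose protein retains SCAP, was at 106, 127, 146 and 187 CPM on PTU and at 45.3, 47.3, 63.6 and 69.4 CPM at 3 h, 2.54-fold lower (edgeR adjusted p = 0.000467). It was at 51.3, 56.5, 60.5 and 77.9 CPM at 6 h, at 73.7, 91.4, 104 and 129 CPM at 12 h, where the groups overlapped and the test was not passed, and at 41.3, 49.9, 54 and 84.4 CPM at 24 h. Without a filter on low counts, edgeR called Insig1 lower at 12 h as well (log2 -0.5, edgeR adjusted p = 0.0455). The fall from 12 h to 24 h passed the test as well (1.75-fold, edgeR adjusted p = 0.022), although the groups overlapped, and this call was lost without B20, B21, B27 or B28.

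At 6 h, Acat2 (104 against 147 CPM), Pmvk (5.10 against 7.87 CPM), Sqle (10.1 against 17.5 CPM) and Nsdhl (77.5 against 125 CPM) were lower as well, by 1.43-fold to 1.76-fold. These 4 calls were less firm: leaving out the PTU mouse B5 ended those of Acat2, Pmvk and Sqle, and leaving out B17 ended all 4. In a fit of all 30 mice, Pmvk (edgeR adjusted p = 0.135), Sqle (0.0735) and Nsdhl (0.0624) were not called, and 2 members rose and 3 fell at 6 h. Sqle was called lower at 3 h already by DESeq2 (log2 -0.77, DESeq2 adjusted p = 0.0364) and by edgeR without a filter (edgeR adjusted p = 0.014). B5 was the highest of the PTU mice in 15 of the 26 members. The count of 7 called members became 4 without mouse B12 or B15 and 3 without B17 of the 6 h group. From 3 h to 6 h, 0 members changed by edgeR (4 at an unadjusted p below 0.05), against 2.8% of all genes, and 1 by DESeq2, Hmgcs1 (log2 -0.52, DESeq2 adjusted p = 0.0239).

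Between 6 h and 12 h, 7 members rose and 0 fell, while 1.59% of all genes rose and 1.36% fell. The 7 were Mvd (2.76-fold), Sqle (2.52-fold), Cyp51 (2.36-fold), Fdft1 (2.19-fold), Hsd17b7 (2.16-fold), Stard4 (1.78-fold) and Msmo1 (1.71-fold), and for each the mice at 12 h were all above the mice at 6 h. The median log2 fold change was 0.59 over the members and 0 over all genes. Leaving out a mouse reduced the count to 3 (B12) or 4 (B15, B17 or B21), and the calls of Mvd and Msmo1 held in 1 of the 8 such fits each. The call of Fdft1 was lost in a fit of only these groups (edgeR adjusted p = 0.055) and that of Mvd in the fit of all 30 mice (edgeR adjusted p = 0.0571). By DESeq2, Insig1 (log2 0.72, DESeq2 adjusted p = 0.0309), Lss (0.75, DESeq2 adjusted p = 0.0483) and Tm7sf2 (0.66, DESeq2 adjusted p = 0.0348) were called as well. Hsd17b7 was at 14.9, 16.5, 17.9 and 18 CPM at 6 h, at 27.2, 35.5, 36.3 and 43.2 CPM at 12 h and at 13.7, 13.7, 18.2 and 20.6 CPM at 24 h. It was thus high at 12 h only, with 14.3, 15.5, 15.9 and 24.6 CPM on PTU and 9.52, 14.5, 15.6 and 16.2 CPM at 3 h (2.04-fold at 12 h against PTU, edgeR adjusted p = 0.000342, and 2.18-fold lower at 24 h than at 12 h, edgeR adjusted p = 0.000831). Stard4 had the same course, with a 1.53-fold rise at 12 h against PTU and a 1.65-fold fall from 12 h to 24 h. From 12 h to 24 h, 1 member rose and 3 fell, against 5.58% and 5.8% of all genes, and 2 were left without mouse B21. Dhcr7 was the member that rose, and its call was lost in 5 of the 8 fits with a mouse left out. In a fit of only the 12 h and 24 h groups the count was 1, and Stard4 (edgeR adjusted p = 0.0512), Insig1 (0.0574) and Dhcr7 (0.119) were not called.

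**Figure D3:**
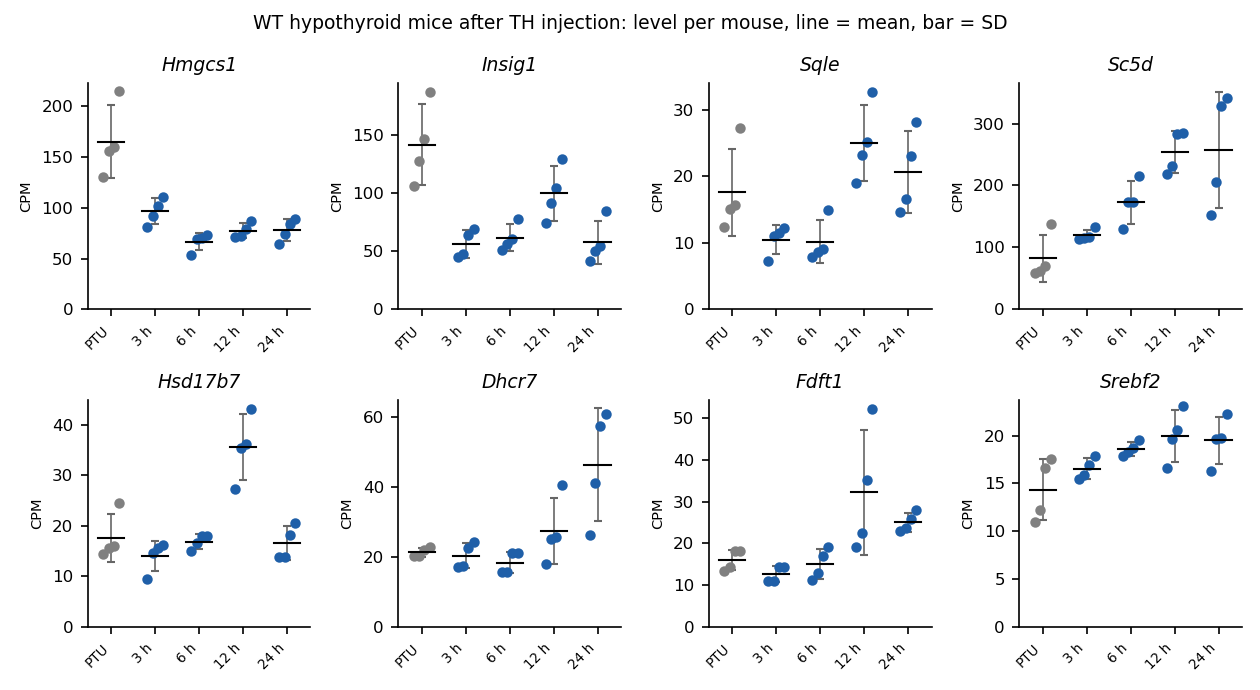
Level in CPM (y axes from 0) of 8 members in each WT mouse on PTU alone (grey) and 3, 6, 12 and 24 h after TH (blue). Points are mice, black lines are means and bars are SD. Hmgcs1 is low at all times after TH, Sc5d climbs to 12 h and 24 h, Hsd17b7 is high at 12 h alone, and Dhcr7 is highest at 24 h.

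Sc5d had the largest rise. It was at 57.8, 62.6, 70.5 and 138 CPM on PTU, where mouse B5 stood apart, and at 113, 115, 117 and 133 CPM at 3 h. It reached 129, 173, 173 and 215 CPM at 6 h, 218, 231, 283 and 284 CPM at 12 h and 153, 205, 329 and 342 CPM at 24 h. The rise was 2.07-fold at 6 h (edgeR adjusted p = 0.00492), 3.11-fold at 12 h and 3.12-fold at 24 h (edgeR adjusted p = 4.78e-05), and at 12 h and 24 h no mouse overlapped with PTU. Dhcr7, which acts on the product of Sc5d in the last step to cholesterol, was at 20.1, 20.3, 21.9 and 22.8 CPM on PTU and at 26.1, 41, 57.3 and 60.9 CPM at 24 h, a 2.17-fold rise (edgeR adjusted p = 0.000734). It was at 17.1, 17.2, 22.5 and 24.2 CPM at 3 h, at 15.6, 15.7, 20.9 and 21 CPM at 6 h, and at 17.9, 25, 25.5 and 40.4 CPM at 12 h. Fdft1 was at 13.4, 14.4, 18.1 and 18.1 CPM on PTU, at 10.9, 11, 14.3 and 14.4 CPM at 3 h, at 11.3, 12.8, 16.9 and 19 CPM at 6 h, at 19.2, 22.5, 35.2 and 52.3 CPM at 12 h (2.02-fold, edgeR adjusted p = 0.00228) and at 22.9, 23.6, 25.8 and 27.9 CPM at 24 h (1.56-fold, edgeR adjusted p = 0.0363). The call at 24 h was lost without B2, B3, B24 or B26. Ctsb, which shares exon bases with it, did not pass the test at any of the 4 time points. Msmo1 rose 1.66-fold at 12 h.

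Srebf2 rose at 12 h (1.40-fold, edgeR adjusted p = 0.0122) and at 24 h (1.36-fold, edgeR adjusted p = 0.0172). It was at 11, 12.2, 16.6 and 17.5 CPM on PTU, at 15.5, 15.9, 16.9 and 17.9 CPM at 3 h, at 17.9, 18.3, 18.7 and 19.5 CPM at 6 h, at 16.6, 19.6, 20.6 and 23.1 CPM at 12 h and at 16.3, 19.6, 19.8 and 22.3 CPM at 24 h, and both calls ended without PTU mouse B2 or B3, and that at 24 h also without B27 and in a fit of only these groups (edgeR adjusted p = 0.0583). At 6 h Srebf2 was above the PTU mice in every mouse, with an edgeR adjusted p of 0.0635. In the fit of all 30 mice it was called higher at 6 h (log2 0.37, edgeR adjusted p = 0.0422). Scap was at 13.1, 13.9, 14.7 and 17.9 CPM on PTU, at 13.4, 15.9, 17.6 and 17.7 CPM at 3 h and at 18.4, 18.4, 18.5 and 21.3 CPM at 6 h, where every mouse was above the PTU mice. At 12 h Scap was at 13.1, 14.6, 17.1 and 18.1 CPM, and at 24 h at 13.8, 14.1, 16.4 and 20.3 CPM, overlapping with PTU. Insig2 was at 27.7, 28.1, 28.5 and 30.3 CPM on PTU, at 24.4, 27.8, 28 and 29.1 CPM at 3 h, at 25.4, 26, 27.5 and 30.8 CPM at 6 h, at 26.8, 26.9, 27.7 and 29.4 CPM at 12 h and at 21.6, 26.5, 26.7 and 28.2 CPM at 24 h, overlapping with PTU each time. In the fit of 20 WT mice by edgeR with the filter on low counts, Mvk, Mvd, Idi1, Fdps, Ggps1, Lss, Cyp51, Tm7sf2, Lbr, Ebp, Scap, Insig2 and Soat1 were not called against PTU. With all mice of the groups kept, 5 of these were called under another setting. Cyp51 was called lower at 3 h by DESeq2 (log2 -0.81, DESeq2 adjusted p = 0.0278), and by edgeR without a filter it was called lower at 3 h (edgeR adjusted p = 0.00837) and 6 h (0.0379) and higher at 12 h (0.0268). Ggps1 was called lower at 6 h by DESeq2 (-0.30, DESeq2 adjusted p = 0.0471) and at 12 h in the fit of all 30 mice (-0.30, edgeR adjusted p = 0.0323). In fits of only the groups compared, Lss was called lower at 6 h (-0.55, edgeR adjusted p = 0.0196), Scap higher at 6 h (0.34, edgeR adjusted p = 0.0476) and Fdps higher at 12 h (0.83, edgeR adjusted p = 0.0387). Mouse B27 had the lowest level of its group in 20 of the 26 members at 24 h. Its brown adipocyte markers summed to 19900 CPM, against 12200 to 14100 CPM in the other mice at 24 h. Its mitochondrial share of 40.5% was the lowest of the group, and the part of either was not tested. The calls of 6 members at 24 h varied from 4 to 8 when a mouse was left out.

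In BATKO mice, 0 of 26 members changed 24 h after TH by edgeR (0 at an unadjusted p below 0.05, and 0 by DESeq2), against 0 of 14178 genes (0%). Hmgcs1 was at 77.6, 90.4, 102, 108 and 118 CPM on PTU and at 58, 65.8, 78.4, 81.9 and 165 CPM after TH, with overlapping groups. Insig1 was at 53.4, 76.9, 79.4, 80.5 and 155 CPM and at 50.2, 66.2, 95.3, 97.7 and 141 CPM. Dhcr7 was at 11.8, 13.8, 16.5, 16.9 and 19.8 CPM and at 11.4, 11.8, 11.9, 16 and 17.6 CPM. Sc5d was at 18.9, 19.8, 22.3, 25.5 and 56.7 CPM and at 16, 30, 42.9, 45.6 and 52.9 CPM. These members all overlapped between the BATKO groups, and 1 mouse on PTU was far above the rest for Insig1 and Sc5d. Fdft1 was at 54.1, 73, 75.3, 93.5 and 100 CPM and at 48.5, 61.7, 85.6, 116 and 148 CPM. Hsd17b7 was at 2.27, 2.29, 2.35, 2.81 and 3.43 CPM and at 1.54, 1.76, 2.41, 3.04 and 3.25 CPM. The regulators overlapped as well. Srebf2 was at 15, 15.9, 16.4, 17.1 and 17.3 CPM and at 12.1, 15.2, 15.7, 16.2 and 18.4 CPM. Scap was at 12.1, 15.2, 17.2, 17.3 and 19.1 CPM and at 11.1, 12.3, 13.9, 15.7 and 17.3 CPM. Insig2 was at 17.2, 17.5, 19.8, 20.6 and 21.7 CPM and at 15.3, 15.9, 16.1, 19 and 20.3 CPM.

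**Figure D4:**
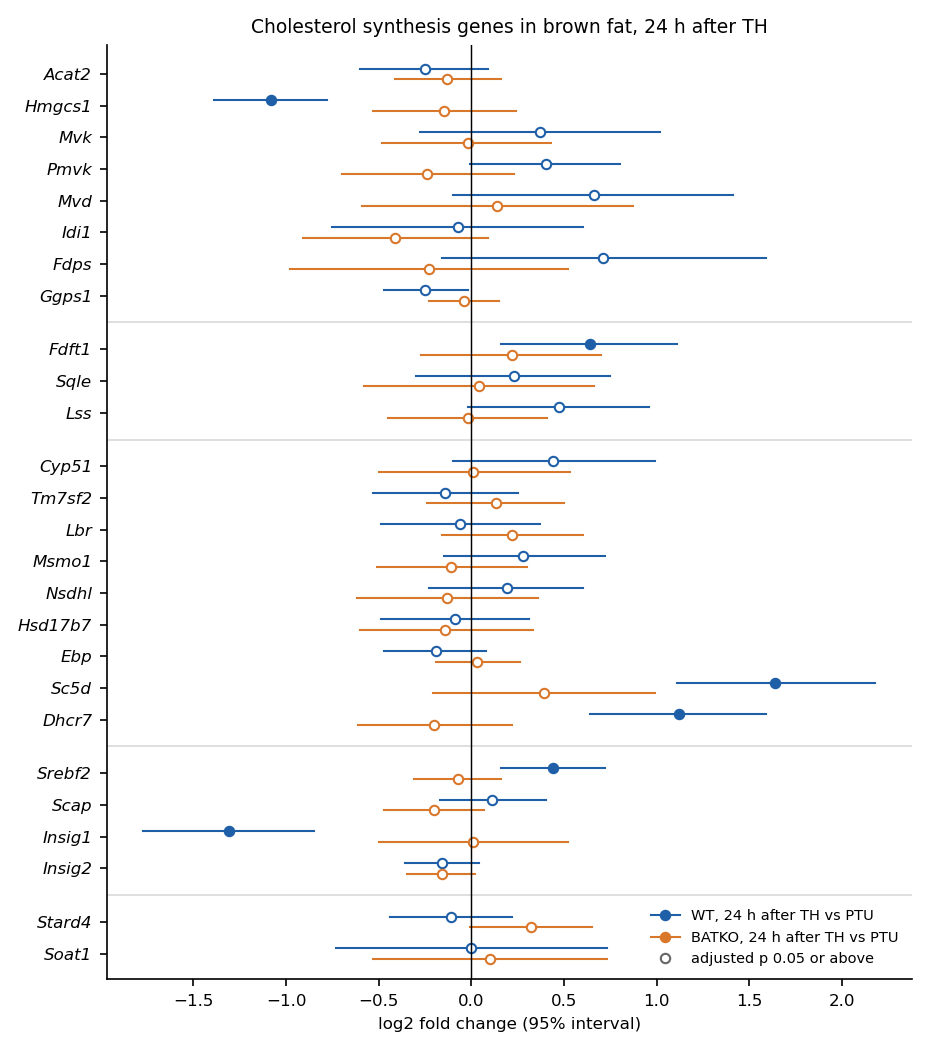
Log2 fold change of each member 24 h after TH against PTU (x axis) in WT mice (blue) and BATKO mice (orange), with 95% intervals. Open points have an adjusted p of 0.05 or above, and grey lines separate the roles. All BATKO points are open and lie between -0.41 and 0.39, whereas Sc5d and Dhcr7 lie to the right and Hmgcs1 and Insig1 to the left in WT mice.

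The difference between the WT and BATKO responses at 24 h was tested as an interaction. It passed for Dhcr7, which responded higher in WT mice (log2 difference 1.32 ± 0.30, edgeR adjusted p = 0.00415), and for Hmgcs1 (-0.94 ± 0.29, edgeR adjusted p = 0.0296) and Insig1 (-1.32 ± 0.38, edgeR adjusted p = 0.0205), which responded lower. Thus 1 of 26 members (3.85%) was higher and 2 were lower, against 7.15% and 5.12% of all genes. These counts were not clearly above the shares of all genes. Sc5d (1.26, edgeR adjusted p = 0.0566) and Srebf2 (0.52, edgeR adjusted p = 0.0501) did not pass with the filter on low counts used here. With a mean count above 50 both passed by edgeR (edgeR adjusted p = 0.0499 and 0.0414), Sc5d also without a filter (edgeR adjusted p = 0.019) and Srebf2 also by DESeq2 (DESeq2 adjusted p = 0.0436). The call of Hmgcs1 was lost without WT mouse B3, B27 or B28, BATKO mouse 3 on PTU or BATKO mouse 15 after TH, that of Insig1 without B5, B27 or BATKO mouse 15, and both in a fit of only the 4 groups (edgeR adjusted p = 0.0786 and 0.0508). Neither gene nor Dhcr7 has a copy covering more than 7.01% of its longest transcript, and Hmgcs1 shares exon bases with an antisense gene, as given above. Since the BATKO libraries differ from the WT libraries as given above, genotype and library cannot be told apart in this test, and the part of the libraries was not tested.

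Few members passed the test on HFD: Hmgcs1 rose and Fdft1 fell. In CTRL mice, 1 of 24 members tested rose and 1 fell (Idi1 and Fdps were too low to test), against 1.89% and 2.04% of all genes. Hmgcs1 was at 66.7, 75.1, 81.3 and 96.7 CPM on chow and at 112, 122, 131 and 145 CPM on HFD, 1.59-fold higher without overlap (edgeR adjusted p = 0.0141). Fdft1 was at 18.8, 21.3, 23.8 and 25.3 CPM on chow and at 6.96, 8.39, 11.4 and 13.4 CPM on HFD, 2.22-fold lower without overlap (edgeR adjusted p = 0.00348). Ctsb, its neighbour on the other strand, had a log2 fold change of -0.10 ± 0.13 (SE, edgeR adjusted p = 0.695). Msmo1 was at 21.3, 22, 26.1 and 26.8 CPM on chow and at 14.1, 15.5, 18.1 and 20.8 CPM on HFD, below every chow mouse, with a log2 fold change of -0.49 ± 0.13 and an edgeR adjusted p of 0.0506. It passed by DESeq2 (DESeq2 adjusted p = 0.0271), and by edgeR with a mean count above 50 (edgeR adjusted p = 0.0429) or without a filter (edgeR adjusted p = 0.0279). Cyp51, at 17.6, 23.8, 24.9 and 26.9 CPM on chow and 14.6, 16.9, 18.9 and 19.1 CPM on HFD, and Hsd17b7, at 9.64, 9.87, 10.2 and 10.3 CPM and 4.65, 7.91, 8.26 and 8.65 CPM, had edgeR adjusted p of 0.111 and 0.147. Soat1 was at 3.33, 3.57, 4.09 and 4.55 CPM on chow and at 3.94, 4.39, 5.94 and 24 CPM on HFD, where 1 mouse (mouse 10) carried the difference. The same mouse had the highest sum of the 6 macrophage and other immune markers, 82 CPM, where the other HFD mice had 25 to 28 CPM, and the chow mice 20.6 to 22.9 CPM. Of 4 fibroblast markers, 2 were higher in every HFD mouse than in every chow mouse, as were 1 of 8 brown adipocyte and 1 of 6 immune markers. The part of these markers in the values of Hmgcs1, Fdft1 and Soat1 was not tested.

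In BATKO mice on HFD, Hmgcs1 and Fdft1 did not pass the test by edgeR, although neither overlapped between the diets. Hmgcs1 was at 80.9 and 99 CPM on chow and at 161, 162 and 201 CPM on HFD (log2 0.96 ± 0.17, edgeR adjusted p = 0.0666), and Fdft1 was at 13.7 and 16.3 CPM and at 6.99, 7.36 and 7.41 CPM (log2 -1.05 ± 0.23, edgeR adjusted p = 0.0844). By edgeR 0 of 24 members were called (4 at an unadjusted p below 0.05), against 0.0696% of all genes, and by DESeq2 these 2 were (DESeq2 adjusted p = 5.02e-05 and 0.00881). Ctsb, on the other strand of Fdft1, was at 962 CPM on chow and 698 CPM on HFD (log2 -0.46 ± 0.17, edgeR adjusted p = 0.234). Msmo1 was at 24 and 26.2 CPM on chow and at 16.6, 18.5 and 20 CPM on HFD, Cyp51 at 14.8 and 19.1 CPM and at 17.8, 18.8 and 21.8 CPM, Hsd17b7 at 10.6 and 10.7 CPM and at 11.1, 11.7 and 11.7 CPM, and Soat1 at 10.3 CPM in both chow mice and at 2.42, 6.79 and 7.67 CPM on HFD. BATKO and CTRL mice differed in 0 members on HFD and in 0 on chow, and their responses to HFD differed in 0, by edgeR and also by DESeq2. At an unadjusted p below 0.05, edgeR gave 3, 4 and 4 members and DESeq2 3, 3 and 3. Of all genes, 0% were called by edgeR in each of these comparisons. In BATKO mice, 3 of 8 brown adipocyte markers were higher and 1 was lower in every HFD mouse than in every chow mouse (summed, 10700 to 12500 against 8600 to 10000 CPM), 2 of 6 immune markers were lower (20.2 to 43.4 against 44.6 to 66.4 CPM), and the summed fibroblast markers were at 331 to 366 CPM against 371 to 420 CPM. Of 4 endothelial markers 1 was higher in every HFD mouse, as was 1 of 3 nerve and Schwann cell markers (summed, 11.2 to 29.4 against 9.93 to 10.3 CPM). With 3 and 2 mice, groups separate easily, and the share of all genes that separate was not computed. The part of these markers was not tested. With 2 chow mice in the BATKO group, intervals were wide, and that of the difference of responses was -0.17 to 0.75 on the log2 scale for Hmgcs1 and -0.52 to 0.74 for Fdft1.

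**Figure D5:**
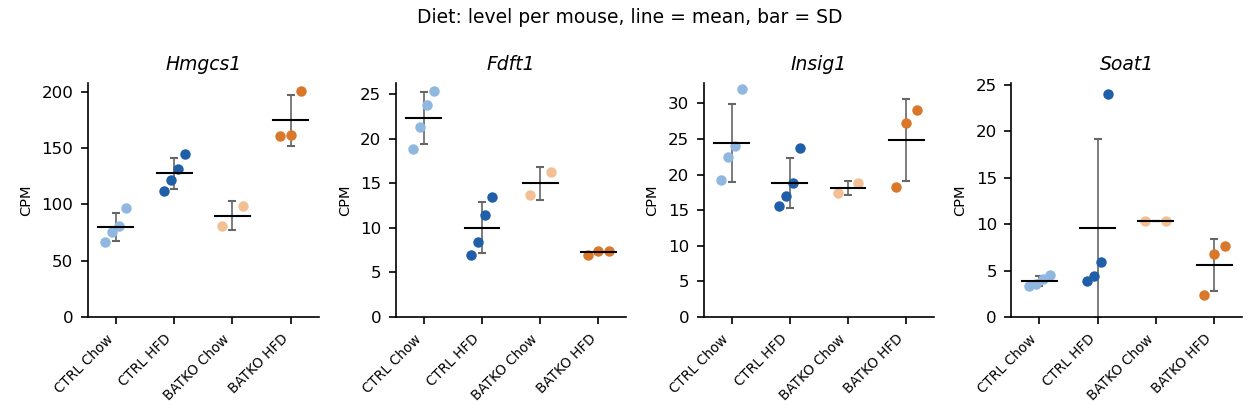
Level in CPM (y axes from 0) of Hmgcs1, Fdft1, Insig1 and Soat1 in each mouse of the diet experiment. Points are mice, black lines are means and bars are SD. Hmgcs1 is higher and Fdft1 lower in every HFD mouse than in every chow mouse of the same genotype, and 1 CTRL mouse on HFD stands apart for Soat1.

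The regulators did not pass a test in the diet experiment. In CTRL mice, Srebf2 was at 26, 26, 27.1 and 28.5 CPM on chow and 22.8, 23, 24.8 and 27.2 CPM on HFD, Insig1 at 19.2, 22.4, 24 and 32 CPM and 15.6, 17, 18.8 and 23.7 CPM, Insig2 at 21.9, 23.1, 23.9 and 24.9 CPM and 20.6, 21.4, 22.2 and 23.6 CPM, and Scap at 13.8, 16.7, 18.2 and 18.3 CPM and 15.1, 15.3, 26.3 and 27.9 CPM. In BATKO mice, Srebf2 was at 25.3 and 30.7 CPM on chow and 21, 27.7 and 30.3 CPM on HFD, Insig1 at 17.4 and 18.8 CPM and 18.3, 27.2 and 29.1 CPM, Insig2 at 25.8 and 26.3 CPM and 22.3, 22.7 and 23.5 CPM, and Scap at 16.4 and 18.4 CPM and 20.5, 21.4 and 22 CPM. Scap on HFD varied most, with 2 CTRL mice near the chow level and 2 above it.

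Across the 3 experiments, Ebp, Scap and Soat1 were called in no comparison by edgeR or by DESeq2 in the settings used for the values above, and neither was Idi1 where it was tested, in the TH experiment. Other settings of edgeR changed this for 3 of them. Soat1 was called higher in BATKO than in CTRL mice on chow (log2 1.41) in a fit of only these groups (edgeR adjusted p = 0.0132) and without a filter on low counts (edgeR adjusted p = 0.0186), against an edgeR adjusted p of 0.589. In the same chow mice, the macrophage and other immune markers summed to 44.6 to 66.4 CPM in BATKO mice and 20.6 to 22.9 CPM in CTRL mice, and the fibroblast markers to 371 to 420 and 226 to 294 CPM, and their part was not tested. Without that filter its values on HFD in CTRL mice (1.31, edgeR adjusted p = 0.00213) and for the difference of HFD responses (-2.15, edgeR adjusted p = 0.00578) passed as well. Idi1 was called higher in the cold in CTRL mice without the filter (1.69, edgeR adjusted p = 0.0102), and Scap 6 h after TH as given above. No treatment moved all parts of the pathway in 1 direction. Hmgcs1 rose in the cold and on HFD in CTRL mice and fell after TH, whereas Fdft1 fell in the cold and on HFD and rose 12 h and 24 h after TH. In a fit of all 30 mice, the rise of Fdft1 at 24 h was not called (edgeR adjusted p = 0.087). These are values side by side from separate experiments, and no test was made across them.

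Related genes were followed as well. In CTRL mice in the cold, 7 of 11 genes of isoprenoid use rose and 0 fell, against 26.5% and 22.6% of all genes, led by Pdss1 (log2 2.63), Pdss2 (1.11) and Rabggtb (0.84). Pdss1 and Pdss2 make the side chain of ubiquinone. Of 8 other SREBP targets, 3 rose, among them Mmab (1.47) and Aacs (1.99), the acetoacetyl-CoA synthetase, and the fatty acid desaturases Fads1 (-1.19) and Fads2 (-0.69) fell. Of 13 sterol handling genes tested, Stard5 (1.88), the lysosomal lipase Lipa (1.65) and Nr1h3 (1.86), which encodes the oxysterol receptor LXRα, rose, and Cyp27a1 (-2.02), Ch25h (-2.12), both of which make oxysterols, and Mylip (-1.29) fell. Among genes of SREBP processing, Mbtps1 (0.53) rose and Erlin1 (-1.35) fell. In BATKO mice in the cold, the counts were 4 up and 0 down for isoprenoid use, 3 and 1 for other SREBP targets, and 3 and 2 for sterol handling, against 21.4% and 18.9% of all genes. Pdss1 (log2 2.15), Stard5 (1.39) and Lipa (1.16) rose, and Fads1 (-1.05), Cyp27a1 (-1.70) and Erlin1 (-0.90) fell.

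After TH in WT mice, related genes moved in both directions. Of 8 other SREBP targets, 0 rose and 0 fell at 3 h, 1 rose and 3 fell at 6 h, 0 rose and 2 fell at 12 h, and 2 rose and 0 fell at 24 h. Of 12 sterol handling genes tested, the numbers were 0 and 1, 3 and 2, 3 and 1, and 4 and 3 at these times, and of 11 genes of isoprenoid use they were 0 and 0, 2 and 1, 3 and 1, and 3 and 2. Among all genes, 5.1% rose and 4.09% fell at 3 h, 12.1% rose and 10.9% fell at 6 h, 13.6% rose and 12.1% fell at 12 h, and 17.2% rose and 15.5% fell at 24 h. At 3 h, Lipa (log2 -0.58), Srebf1 (-0.83), which encodes SREBP1, and Mbtps2 (-0.35) fell. At 6 h, Scarb1 (0.89), a receptor for high-density lipoprotein, Pdss1 (0.83) and Stard5 (0.63) rose, and Acly (-1.49), the ATP citrate lyase that supplies acetyl-CoA, Fnta (-0.45) and the sterol exporter Abcg1 (-1.31) fell. At 12 h, Pdss1 (1.24), Nceh1 (1.62), a cholesteryl ester hydrolase, and Mylip (0.62) rose, and Fnta (-0.50), Erlin1 (-0.79) and Rdh11 (-0.87) fell. At 24 h, Nceh1 (1.95), Pdss1 (0.85) and Stard5 (0.88) rose, as did the other SREBP targets Fads2 (1.15) and Tmem97 (1.08), and Fnta (-0.67), Erlin2 (-0.60) and Abcg1 (-1.08) fell. Among the genes of SREBP processing reported here, Erlin1 (-0.54), Mbtps2 (-0.34) and Srebf1 (-0.67) fell at 24 h as well, and 0 rose at any of the 4 times.

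Between successive times, Pdss1 (log2 0.63) rose from 3 h to 6 h. Mylip (0.57) and Aacs (1.08) rose and Scarb1 (-0.53) fell from 6 h to 12 h. From 12 h to 24 h, Fads2 (1.14), Rdh11 (0.88) and Fntb (0.66) rose and Mylip (-1.01) fell. The response at 24 h was higher in WT than in BATKO mice for Nceh1 (log2 difference 1.88, edgeR adjusted p = 0.0013), Fads2 (1.22, edgeR adjusted p = 0.00922) and Tmem97 (1.05, edgeR adjusted p = 0.0119). It was lower for Fnta (-0.58, edgeR adjusted p = 0.00344), Pggt1b (-0.61, edgeR adjusted p = 0.0281) and Erlin2 (-0.45, edgeR adjusted p = 0.0408). As for the members, genotype and library cannot be told apart in these differences. Other settings and fits with a mouse left out were not examined for related genes. On HFD, Acly (-1.67) and Aacs (-0.87) fell and Coq2 (0.52) rose in CTRL mice.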

How the data were processed

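BAT of 59 mice was profiled by RNA-seq (total RNA kit). According to their methods and the processing notes, the authors aligned reads to GRCm38 (mm10) with Bowtie2 (version 2.3.2.2 in the notes), removed reads of low alignment quality, ran htseqcount, and deposited 3 tables of raw counts, 1 value per gene and mouse. The annotation and strand setting of the counting are not given in the sources used here. No column was left unmatched to a mouse.

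Groups came from the labels of the samples. Counts were analysed in R 4.3.3 with edgeR 4.0.16: TMM factors, a filter that kept genes averaging over 10 normalized counts in the fit, the quasi-likelihood test and Benjamini-Hochberg adjustment over all genes tested, with a threshold of 0.05. WT time points were fitted over 20 mice, BATKO and interaction tests over 30, temperature over 16 and diet over 13. Alternatives were DESeq2 1.42.0, RLE size factors, other filters, other sets of mice and each mouse left out in turn. The steps were tested on simulated data. Members and gene lists were chosen with earlier results of these data known. All 26 members are named, and values in every mouse are given for the 6 members with the lowest adjusted p in each experiment and for Srebf2, Scap, Insig1 and Insig2. For each comparison and direction, the related genes reported are named from the lowest adjusted p, up to 3, and further ones were named after their values were seen. Of the related genes, 1 is not reported here, and its list is given without counts. Gene positions and copies came from GENCODE, and promoters from RefSeq. The edgeR p-values weigh a difference between groups against the spread between mice. That spread was estimated over all groups of the fit and moderated across genes.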

Additional observations from a re-analysis of the deposited data

Results flagged for a closer look

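In 18 of the 312 combinations of member and group with 4 or 5 mice, 1 mouse lay apart from the others by its gap divided by the range of the group, and chance gives about 15.6 (1 in 20). In the PTU group of WT mice these were mouse B5 for Pmvk (0.871), Hsd17b7 (0.845) and Sc5d (0.842, with 138 CPM against 57.8 to 70.5 CPM in the others) and mouse B4 for Ebp (0.848). At 6 h after TH they were B13 for Sqle (0.832) and Lss (0.898), B17 for Scap (0.966), and B17 as the lowest for Hmgcs1 (0.837). At 12 h, B20 was apart for Fdps (0.856). In BATKO mice on PTU, mouse 11 was apart for Ggps1 (0.757) and, as the lowest, for Sqle (0.748), and mouse 4 for Sc5d (0.825) and Insig1 (0.733, with 155 CPM against 53.4 to 80.5 CPM). After TH, BATKO mouse 15 was apart for Hmgcs1 (0.777, with 165 CPM against 58 to 81.9 CPM), and the interaction of Hmgcs1 is lost without it.

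In the temperature experiment, BATKO mouse 8 at 4 °C was apart for Sc5d (0.942). In the diet experiment, CTRL mice on HFD held mouse 9 for Tm7sf2 (0.843) and mouse 10 for Soat1 (0.9, with 24 CPM against 3.94 to 5.94 CPM), and CTRL mouse 4 on chow was the lowest for Sc5d (0.908).

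The response to TH at 24 h differed between WT and BATKO mice by the interaction test of edgeR for Hmgcs1 (log2 difference -0.94), Dhcr7 (1.32) and Insig1 (-1.32). These counts were not clearly above the shares of all genes (7.15% higher and 5.12% lower). The BATKO libraries of this experiment differ from the WT libraries in 133 genes that are at 0 in all WT mice, and the part of this was not tested.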

How the results depend on the processing

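Over 80 combinations of member and comparison past the threshold, 451 of 469 values under other settings kept direction and call, 18 lost the call and 0 changed direction. With a mouse left out, 592 of 664 kept the call, 72 lost it and 0 changed direction. Of 390 mean levels, 2 moved by more than 1 SD with RLE size factors. The count of called members moved by over 1.5 times in these cases. Without a filter on low counts it was 4 at 3 h after TH, 1 from 3 h to 6 h, 4 for HFD in CTRL mice, 2 for HFD in BATKO mice, 1 for BATKO against CTRL mice on chow and 1 for the difference of HFD responses. By DESeq2 it was 4 at 3 h, 1 from 3 h to 6 h, 3 for the difference of cold responses and 2 for HFD in BATKO mice. With a mean count above 50 it was 5 for the difference of TH responses. In fits of only the groups compared it was 1 from 12 h to 24 h, 1 for the difference of TH responses, 0 for BATKO against CTRL mice at 4 °C, 2 for HFD in BATKO mice and 1 for BATKO against CTRL mice on chow. The causes were not tested.

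With each mouse left out in turn, the count was 2 to 4 at 3 h, 3 to 10 at 6 h, 6 to 9 at 12 h and 4 to 8 at 24 h after TH. It was 0 to 1 from 3 h to 6 h (1 without B7), 3 to 7 from 6 h to 12 h, 2 to 4 from 12 h to 24 h and 2 to 5 for the difference of TH responses (5 without BATKO mouse 11 on PTU). It was 20 to 21 for cold in CTRL mice, 17 to 19 in BATKO mice, 0 to 3 for BATKO against CTRL mice at 4 °C, 0 to 1 for the difference of cold responses (1 without CTRL mouse 5) and 2 to 3 for HFD in CTRL mice. At 3 h, 4 were called without PTU mouse B2. In the other comparisons it was 0 throughout. A BATKO chow group of 1 mouse was assumed to vary like the other groups. No paired analysis was possible because mice of compared groups share no number that marks a common litter, batch or day. Members at a few CPM, such as Fdps, Idi1, Mvd and Soat1, are limited by depth.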
